A study of Mus musculus with 12 samples.

Results

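The genes described here are 34 chaperones, folding enzymes, degradation factors and stress sensors of the endoplasmic reticulum (ER). They were taken as every probe set annotated to 1 of 34 listed symbols, which gave 79 of the 45101 probe sets on the Affymetrix mouse array. All 34 genes kept at least 1 probe set after a filter on dim signals, so all of them are among the 19990 genes and unnamed probe sets (features) that were tested. Most of the chaperones and folding enzymes among them rose with all MEIS1 constructs. Several stress sensors and degradation factors fell in the same cultures. The share of the 34 genes that fell was near that of all features, and several falls were lost with arrays scaled to equal medians. The genes were chosen with earlier results of these data known.

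The arrays measured RNA of mouse bone marrow cells, transformed by NUP98-HOXD13, a leukaemia fusion of a nucleoporin with a homeobox protein. The marrow had been exposed to 5-fluorouracil, and the F1 donor mice were a cross of C57Bl/6Ly-Pep3b x C3H/HeJ. Every group, the control included, carries this fusion from a retrovirus, was kept for 4 weeks in liquid culture with human IL-6 (10 ng/ml), mouse IL-3 (6 ng/ml) and mouse stem cell factor (100 ng/ml), and then spent 2 days on irradiated E86 cells that release a second virus. That virus coded for M33-MEIS1, for MEIS1-deltaHD (by its name MEIS1 without its DNA-binding homeodomain), for MEIS1-WT (full-length MEIS1), or, in the MIY control, for yellow fluorescent protein alone. The labels say no more of the M33-MEIS1 construct. Each group has 3 arrays, 12 in all, which the series record calls independent experiments. RNA came from sorted cells. The sources used here do not give the gate, the age of the mice or how many separate cell lines stand behind the arrays.

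Proteins that enter the secretory pathway pass the Sec61 translocon into the ER, where the Hsp70 protein BiP (Hspa5), the Hsp90 protein GRP94 (Hsp90b1), lectin chaperones and disulfide isomerases fold them. Misfolded proteins are taken back to the cytosol and degraded. When unfolded proteins build up, the sensors IRE1alpha (Ern1), PERK (Eif2ak3) and ATF6 start the unfolded protein response. IRE1alpha splices Xbp1 mRNA into the template of a transcription factor, ATF6 is cut to release another, and PERK phosphorylates eIF2alpha, which lowers translation and raises ATF4. XBP1 and ATF6 raise many of the chaperone genes through a promoter element called ERSE.

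The ERSE is the sequence CCAAT, then 9 bases, then CCACG. It was searched on both strands of RefSeq promoter windows of the GRCm38.p6 build, from 250 bases before to 50 bases after each gene's start. Windows were found for 29 of the 34 genes, and 9 of these held the element: Calr, Canx, Creld2, Derl3, Dnajc3, Hsp90b1, Hspa5, Pdia6 and Syvn1. In all, 39 of 32851 windows (0.119%) held it, in 37 of 27025 genes. The related ERSE-II (ATTGG, 1 base, CCACG) was in 12 windows (0.0365%), among them those of Dnajb11 and Herpud1. The stretches around the element follow for 4 genes that rose with all constructs, for Syvn1, which passed in no comparison, and for Herpud1, which fell with M33-MEIS1 and MEIS1-deltaHD in both its probe sets. Each is read 5′ to 3′ on the strand of its gene, and capitals mark the fixed letters of the ERSE, or the whole of the ERSE-II in Herpud1.
Hspa5, chr2:34772005-34772063, plus strand: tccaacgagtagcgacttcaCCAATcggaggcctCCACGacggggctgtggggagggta
Creld2, chr15:88819500-88819558, plus strand: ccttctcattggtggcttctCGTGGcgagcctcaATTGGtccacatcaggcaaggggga
Dnajc3, chr14:118937807-118937865, plus strand: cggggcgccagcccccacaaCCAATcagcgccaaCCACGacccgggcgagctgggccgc
Pdia6, chr12:17266471-17266529, plus strand: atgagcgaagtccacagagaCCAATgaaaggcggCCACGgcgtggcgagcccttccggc
Syvn1, chr19:6046512-6046570, plus strand: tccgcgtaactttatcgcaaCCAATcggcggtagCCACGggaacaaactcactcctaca
Herpud1, chr8:94386357-94386407, plus strand: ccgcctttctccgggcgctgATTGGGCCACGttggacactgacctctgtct

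In Creld2 the element lies on the opposite strand, so it appears as its reverse complement. The element of Hspa5 lies 65 to 47 bases before the start of the gene, and that of Syvn1 lies 44 to 26 bases before it. A match of letters is a description and does not show that a factor binds there. The short core of the element, CCACG, stood in 32.8% of all windows. Of 2 further motifs of the response, the XBP1-type core TGACGTGG stood in 0.676% of windows and in that of Txndc5. The core of the ATF4-type element, TGATGNAA, stood in 3.97% of windows and in those of Herpud1 and Txndc5.

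Signals are the authors' linear array intensities, scaled per array. Differences were tested on log2(signal + 16) with limma over all 12 arrays, and a gene passed at a Benjamini-Hochberg adjusted p below 0.05. Differences of dim genes are therefore smaller than the ratios of their signals. The median signal was at least 13.1 on the construct arrays and 17.4 to 21.6 on the control arrays, all of which lay above the construct arrays. Gapdh probe sets at the 3' and the 5' end, a check of RNA quality, had signal ratios of 0.850, 0.819 and 0.832 with M33-MEIS1, MEIS1-deltaHD and MEIS1-WT, against 0.783 in control. Those of actin were 1.38, 1.35 and 1.46 with the constructs, against 1.501 in control. The Meis1 probe set used averaged 117 ± 14.6 with M33-MEIS1, 110 ± 9.96 with MEIS1-deltaHD and 141 ± 10.4 with MEIS1-WT, against 187 ± 18.4 in control (SD, n = 3 each). Whether it reads the inserted genes was not tested, because the sequences of the constructs were not at hand. The group names rest on the labels.

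Cell type markers moved with the constructs as well. The summed signal of 10 monocyte and macrophage markers was 3552 to 4045 with M33-MEIS1, 2223 to 2410 with MEIS1-deltaHD and 542 to 640 with MEIS1-WT, against 12494 to 14502 in control. All 9 of them that were tested fell with each construct, and C1qa was below 1 on average in every group. The 6 markers of granule-rich promyelocytes summed to 23923 to 27584, 24143 to 25389 and 16210 to 16979 with the constructs in that order, against 17143 to 21611 in control. The 7 mast cell and basophil markers summed to 4478 to 4984, 2150 to 2397 and 1746 to 1841, against 2862 to 4260. Markers of plasma and B cells, which hold much ER, were at most 89.4 in sum, and none of the 3 tested passed with limma against control (1 at an unadjusted p below 0.05, with MEIS1-deltaHD). The 12 fibroblast markers, chosen for the E86 producer cells, summed to 151 to 174, 155 to 204 and 206 to 210, against 226 to 234 in control. The 5 general haematopoietic markers summed to 9723 to 10330, 9337 to 9582 and 8053 to 8672, against 12330 to 13398. The part of these cell types in the results on ER genes was not tested. In bulk RNA, fewer cells of a type and less RNA per cell cannot be told apart.

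Against control, 20 of the 34 genes were higher and 6 lower with M33-MEIS1, where 12.4% of all features were called higher and 18.3% lower. With MEIS1-deltaHD, 20 were higher and 9 lower (all features: 13.8% and 22.7%). With MEIS1-WT, 13 were higher and 7 lower (all features: 13.3% and 19.4%). The shares called lower lay near those of all features. Because the genes were chosen with earlier results of these data known, an excess over all features is not independent evidence. The median log2 difference of the 34 genes was 0.38, 0.31 and 0.17 with M33-MEIS1, MEIS1-deltaHD and MEIS1-WT, beside -0.13, -0.17 and -0.12 over all features. These comparisons share the 3 control arrays. With all 3 constructs 13 genes were higher and 5 lower, against 9.57% and 11.8% of all features. Syvn1, Derl3 and Eif2ak3 passed with none. All 3 arrays lay above all 3 control arrays for 22 genes with M33-MEIS1, 21 with MEIS1-deltaHD and 16 with MEIS1-WT (all features: 14.7%, 16.5% and 16.5%). They lay below for 7, 9 and 8 genes (all features: 25.3%, 31.7% and 26.5%).

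**Figure D1:**
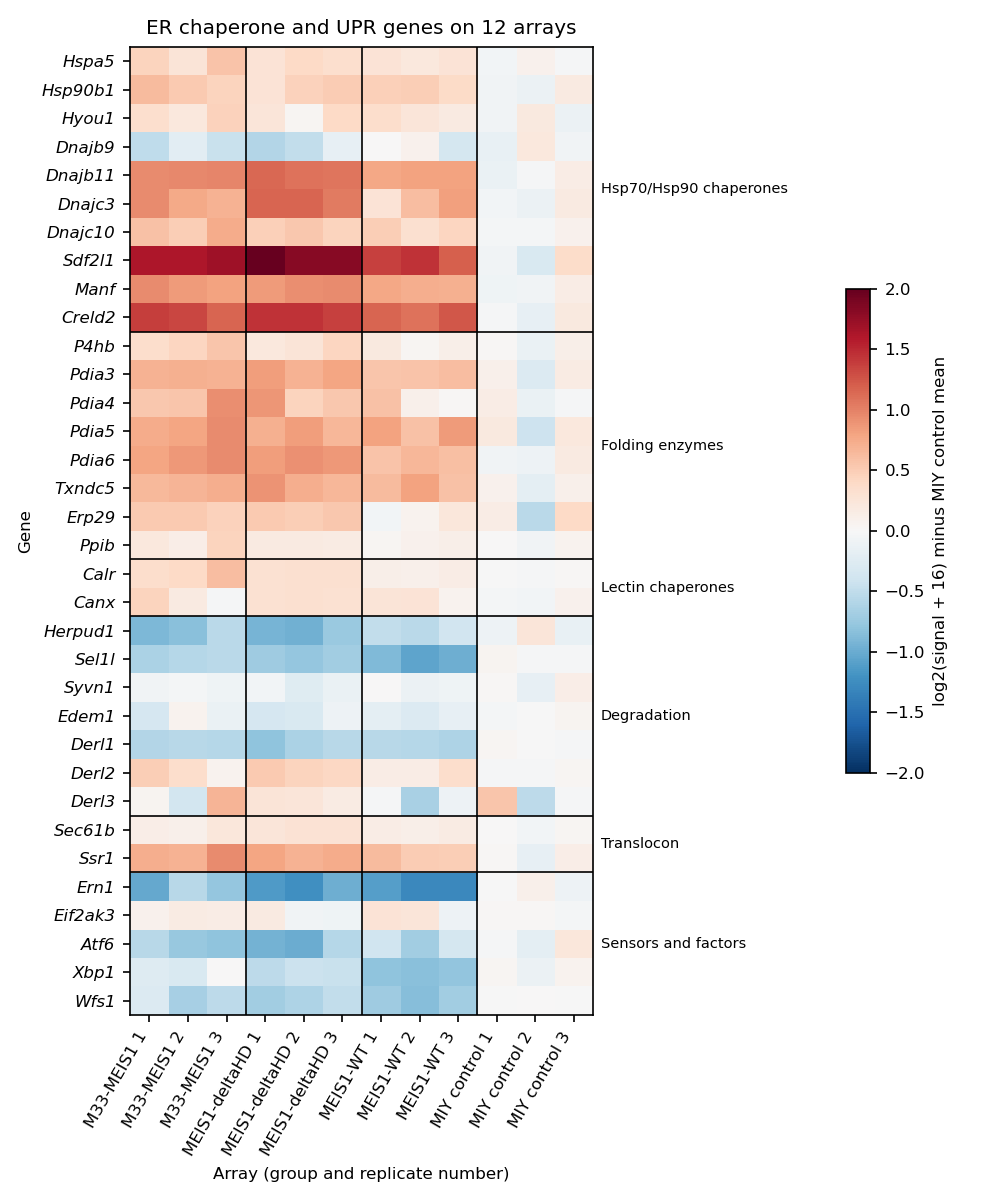
Each row is 1 of the 34 genes and each column 1 array. Colour gives log2(signal + 16) minus the mean of the 3 MIY control arrays (red higher, blue lower, limits -2 and 2), and lines separate groups and roles. Sdf2l1, Creld2 and Dnajb11 are red on all 9 construct arrays, and Ern1, Sel1l, Derl1 and Herpud1 are blue on all 9 in the deposited scaling.

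The Hsp70 and Hsp90 chaperones and their partners held the genes with the largest increases. Of 10 genes, 9 rose with M33-MEIS1, 8 with MEIS1-deltaHD and 8 with MEIS1-WT, with median log2 differences of 0.70, 0.70 and 0.51. The shares of all features that rose were 12.4%, 13.8% and 13.3%. Sdf2l1 codes for an ER protein that works beside the BiP co-chaperone ERdj3. Its signal was 486, 487 and 517 on the M33-MEIS1 arrays, 728, 563 and 563 with MEIS1-deltaHD and 408, 430 and 362 with MEIS1-WT, against 141, 117 and 196 in control. All construct arrays lay above all control arrays, and all MEIS1-deltaHD arrays lay above those of the other constructs. The mean signal was 3.28, 4.08 and 2.64 times that of control with M33-MEIS1, MEIS1-deltaHD and MEIS1-WT, with log2 differences of 1.64, 1.94 and 1.34 (SE 0.125 each, adjusted p = 3.89e-10, 1.39e-11 and 6.96e-09).

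Creld2, an ER protein with epidermal growth factor-like domains, followed. It gave 452, 437 and 385 with M33-MEIS1, 472, 471 and 446 with MEIS1-deltaHD and 385, 365 and 406 with MEIS1-WT, against 159, 144 and 189 in control. Every construct array was above every control array, and the differences were 1.29, 1.42 and 1.16 on the log2 scale (SE 0.0945, adjusted p = 1.84e-10, 2.43e-11 and 6.17e-10). Dnajb11 codes for ERdj3, which hands unfolded proteins to BiP. Its signals were tight within groups, at 563, 571 and 576 with M33-MEIS1, 650, 621 and 615 with MEIS1-deltaHD and 496, 509 and 512 with MEIS1-WT, against 259, 281 and 317 in control. No 2 of the 4 groups overlapped, and Dnajb11 rose by 0.96, 1.10 and 0.79 (SE 0.0798, adjusted p = 1.55e-09, 1.09e-10 and 2.28e-08).

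Manf, a small ER protein that binds BiP and can be secreted, was bright in all groups. It stood at 2655, 2501 and 2418 with M33-MEIS1, 2486, 2646 and 2659 with MEIS1-deltaHD and 2356, 2283 and 2268 with MEIS1-WT, against 1300, 1309 and 1527 in control. Again no construct array reached down to the control arrays, and the log2 differences were 0.87, 0.91 and 0.74 (SE 0.0734, adjusted p = 2.15e-09, 6.86e-10 and 1.98e-08). Dnajc3 codes for p58IPK, a BiP co-chaperone first described as an inhibitor of eIF2alpha kinases. It gave 348, 306 and 292 with M33-MEIS1, 407, 408 and 373 with MEIS1-deltaHD and 213, 275 and 318 with MEIS1-WT, against 166, 158 and 198 in control. The MEIS1-WT arrays spread widely, yet the lowest of them was above the highest control array. Dnajc3 rose by 0.80, 1.12 and 0.57 (SE 0.115, adjusted p = 6.69e-06, 3.41e-08 and 3.52e-04).

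BiP itself (Hspa5) averaged 4607 ± 481, 4307 ± 177 and 4072 ± 106 with M33-MEIS1, MEIS1-deltaHD and MEIS1-WT, against 3413 ± 179 in control (SD, n = 3 each). Its log2 differences were 0.43, 0.33 and 0.25 (adjusted p = 1.13e-04, 0.00114 and 0.0117), and the call with MEIS1-WT was lost when control replicate 1 was left out (0.22, adjusted p = 0.0594). That call was also lost without an intensity trend in the variance (adjusted p = 0.0718). With the mean of its kept probe sets Hspa5 did not pass with MEIS1-deltaHD (0.15, adjusted p = 0.113). GRP94 (Hsp90b1) rose by 0.54, 0.42 and 0.45, and the disulfide reductase ERdj5 (Dnajc10) by 0.61, 0.49 and 0.41. With MEIS1-WT the other Dnajc10 probe sets did not pass (0.20 and 0.22, adjusted p = 0.0927 and 0.184), nor did the gene with x and s probe sets left out (0.20, adjusted p = 0.0838). Hyou1 codes for the nucleotide exchange factor GRP170, and its brightest probe set passed with M33-MEIS1 alone (0.34, adjusted p = 0.0141). It lost that call without control replicate 1 (adjusted p = 0.0613), control replicate 3 (0.0608) or M33-MEIS1 replicate 3 (0.0726). A dimmer Hyou1 probe set passed as higher with all constructs (0.68, 0.79 and 0.71, adjusted p = 0.00101, 1.47e-04 and 5.32e-04). Dnajb9 codes for ERdj4, which holds IRE1alpha inactive together with BiP, and it went the other way. It fell with M33-MEIS1 (-0.39, adjusted p = 0.0209) and MEIS1-deltaHD (-0.41, adjusted p = 0.0117), while with MEIS1-WT the difference was -0.09 (adjusted p = 0.647), and with arrays scaled to equal medians it passed with none and turned to 0.07 with MEIS1-deltaHD. Both calls were lost without control replicate 2 (-0.28, adjusted p = 0.121, and -0.31, adjusted p = 0.076) and without 1 construct array each: M33-MEIS1 replicate 1 (-0.32, 0.0978) or 3 (-0.36, 0.062), and MEIS1-deltaHD replicate 1 (-0.32, 0.0814) or 2 (-0.37, 0.0519).

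All 8 disulfide isomerases and other folding enzymes rose with M33-MEIS1, 7 of them rose with MEIS1-deltaHD and 4 with MEIS1-WT (all features: 12.4%, 13.8% and 13.3%). Their median log2 differences were 0.68, 0.68 and 0.41. Pdia6, a thioredoxin-fold isomerase, had signals of 1513, 1601 and 1697 with M33-MEIS1, 1574, 1651 and 1608 with MEIS1-deltaHD and 1307, 1397 and 1337 with MEIS1-WT, against 825, 815 and 984 in control. All construct arrays exceeded all control arrays, with differences of 0.87, 0.87 and 0.62 (SE 0.0773, adjusted p = 5.26e-09, 3.11e-09 and 7.19e-07). Pdia5, another isomerase, was dimmer, at 182, 189 and 211 with M33-MEIS1, 178, 196 and 172 with MEIS1-deltaHD and 191, 161 and 198 with MEIS1-WT, against 119, 72.8 and 121 in control. The control arrays again lay lowest, and Pdia5 rose by 0.83, 0.74 and 0.75 (SE 0.133, adjusted p = 3.39e-05, 9.1e-05 and 9.25e-05).

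Pdia3, the isomerase ERp57 that acts on glycoproteins bound to lectin chaperones, rose by 0.70, 0.77 and 0.58, and the thioredoxin-domain protein Txndc5 by 0.69, 0.77 and 0.68. The remaining 4 passed with 1 or both of the other constructs and not with MEIS1-WT. P4hb is the classical protein disulfide isomerase, also a subunit of prolyl 4-hydroxylase. It gave 2819, 2963 and 3235 with M33-MEIS1, 2547, 2642 and 2988 with MEIS1-deltaHD and 2542, 2261 and 2384 with MEIS1-WT, against 2233, 2017 and 2385 in control. M33-MEIS1 and MEIS1-deltaHD arrays lay above all control arrays, and the MEIS1-WT arrays overlapped with control. P4hb rose with M33-MEIS1 (0.44, adjusted p = 1.58e-04) and MEIS1-deltaHD (0.30, adjusted p = 0.00497), and the difference with MEIS1-WT was 0.12 (SE 0.0810, adjusted p = 0.298). Pdia4 rose by 0.68 with M33-MEIS1 and by 0.62 with MEIS1-deltaHD, and Erp29, an isomerase relative without the redox site, by 0.50 and 0.51. With MEIS1-WT their differences were 0.24 (adjusted p = 0.255) and 0.08 (adjusted p = 0.709). The call of Erp29 with M33-MEIS1 was lost without control replicate 2 (0.23, adjusted p = 0.0548). The prolyl isomerase cyclophilin B (Ppib) passed only with M33-MEIS1 (0.26, adjusted p = 0.00975), and not without M33-MEIS1 replicate 3 (0.17, adjusted p = 0.0748).

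The lectin chaperones hold newly made glycoproteins in the folding cycle. Calreticulin (Calr) gave 2885, 2964 and 3462 with M33-MEIS1, 2791, 2823 and 2806 with MEIS1-deltaHD and 2436, 2416 and 2491 with MEIS1-WT, against 2253, 2224 and 2284 in control. All construct arrays were above control, but the step with MEIS1-WT was small. Calr rose with M33-MEIS1 (0.45, adjusted p = 2.42e-05) and MEIS1-deltaHD (0.31, adjusted p = 0.00111), with a difference of 0.12 with MEIS1-WT (adjusted p = 0.223). Its membrane-bound relative calnexin (Canx) gave 0.20, 0.31 and 0.20 in its brightest probe set, which passed with MEIS1-deltaHD alone (adjusted p = 0.1, 0.00833 and 0.0904). A second Canx probe set passed as higher with all constructs (0.29, 0.46 and 0.43, adjusted p = 0.0234, 3.89e-04 and 9.13e-04).

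At the translocon, Ssr1 codes for a subunit of the TRAP complex, which helps proteins through the Sec61 channel. Its signals were 1886, 1836 and 2190 with M33-MEIS1, 1962, 1830 and 1902 with MEIS1-deltaHD and 1758, 1621 and 1603 with MEIS1-WT, against 1152, 1007 and 1243 in control. No construct array came near the control arrays, and Ssr1 rose by 0.79, 0.74 and 0.55 (SE 0.0826, adjusted p = 6.84e-08, 1.37e-07 and 1.07e-05). Sec61b, a small subunit of the channel, passed only with MEIS1-deltaHD (0.27, adjusted p = 0.0021), beside 0.16 and 0.15 with M33-MEIS1 and MEIS1-WT (adjusted p = 0.0704 and 0.0906).

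**Figure D2:**
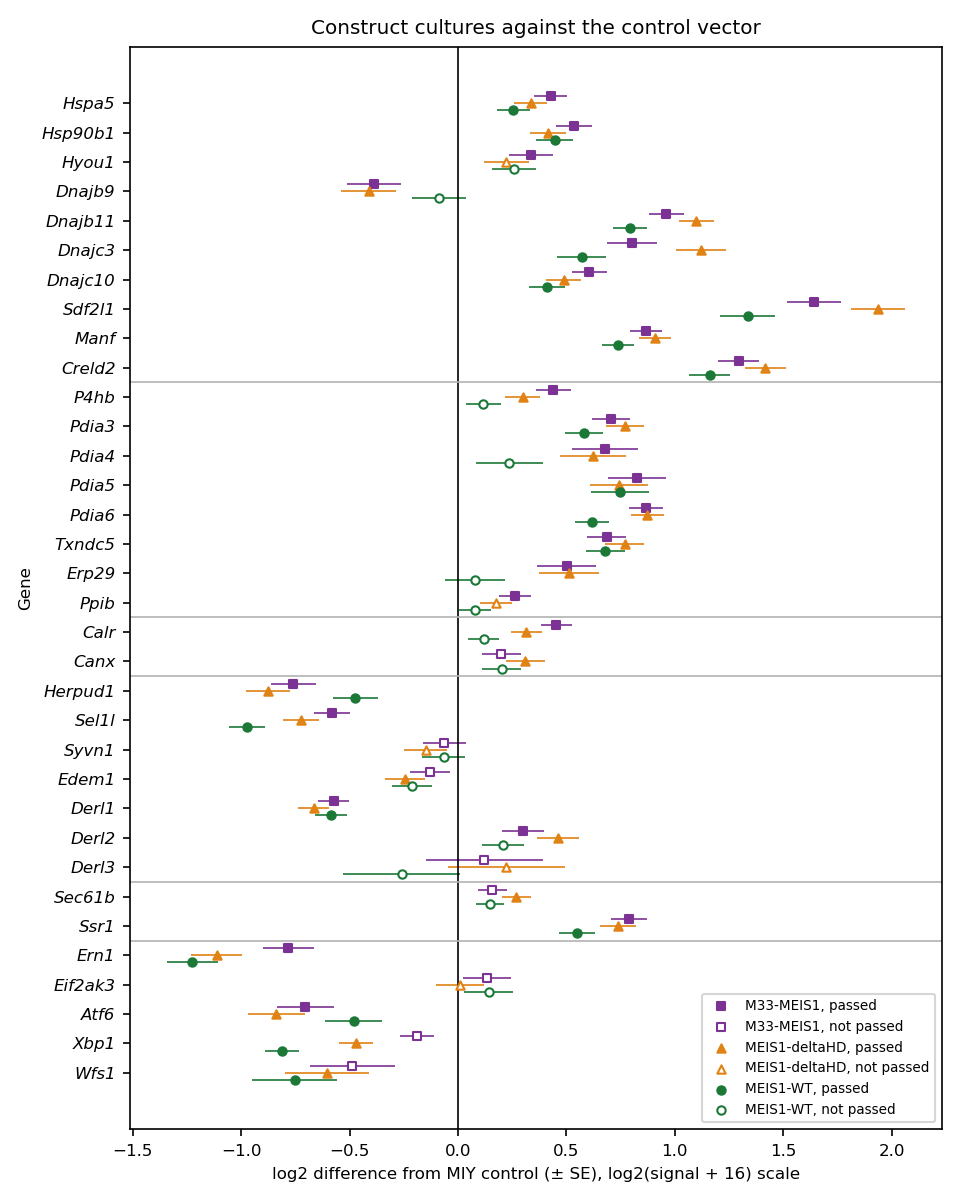
Points show the log2 difference of each gene from MIY control on the log2(signal + 16) scale, with bars of 1 SE, for M33-MEIS1 (squares), MEIS1-deltaHD (triangles) and MEIS1-WT (circles). Filled points passed at an adjusted p below 0.05. Chaperones and folding enzymes lie right of 0 apart from Dnajb9, and the sensors lie left of it apart from Eif2ak3, but with arrays scaled to equal medians Xbp1 lies right of 0 for M33-MEIS1 and MEIS1-deltaHD, and Dnajb9 for MEIS1-deltaHD and MEIS1-WT.

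The 7 genes of ER-associated degradation did not share one direction. With M33-MEIS1 1 rose and 3 fell, with MEIS1-deltaHD 1 rose and 4 fell, and with MEIS1-WT 3 fell and none rose in limma (1 at an unadjusted p below 0.05, Derl2, with 0.21 and adjusted p = 0.103). Of all features 12.4%, 13.8% and 13.3% rose and 18.3%, 22.7% and 19.4% fell with the constructs in that order. Once arrays were scaled to equal medians, 1 of the 7 was higher and 1 lower with each construct. Herpud1, a ubiquitin-like membrane protein that organises the degradation complex, gave 501, 526 and 650 with M33-MEIS1, 490, 483 and 564 with MEIS1-deltaHD and 674, 648 and 722 with MEIS1-WT, against 890, 1129 and 855 in control. All construct arrays lay below all control arrays. Herpud1 fell by 0.76, 0.88 and 0.47 on the log2 scale (SE 0.103, adjusted p = 3.28e-06, 2.94e-07 and 7.98e-04). A second Herpud1 probe set fell with M33-MEIS1 (-0.65) and MEIS1-deltaHD (-0.58), and gave -0.11 with MEIS1-WT (adjusted p = 0.356). Sel1l, the partner of the ubiquitin ligase HRD1, stood at 278, 290 and 297 with M33-MEIS1, 261, 251 and 266 with MEIS1-deltaHD and 230, 203 and 216 with MEIS1-WT, against 454, 429 and 433 in control. The groups did not overlap with one another, and Sel1l fell by 0.58, 0.72 and 0.97 (SE 0.0827, adjusted p = 6.64e-06, 1.92e-07 and 1.36e-09).

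Derl1, a membrane protein of the retrotranslocation channel, fell by 0.57, 0.66 and 0.59 (adjusted p = 1.07e-06, 8e-08 and 5.35e-07). Its other kept probe sets gave -0.20 to -0.33 with MEIS1-deltaHD, and the brightest of these did not pass (adjusted p = 0.0963). With x and s probe sets left out Derl1 lost its call with MEIS1-deltaHD (-0.20, adjusted p = 0.0887). Its relative Derl2 rose with M33-MEIS1 (0.30, adjusted p = 0.0197) and MEIS1-deltaHD (0.46, adjusted p = 5.21e-04). The call with M33-MEIS1 was lost without control replicate 1 (0.29, adjusted p = 0.0558), M33-MEIS1 replicate 1 (0.20, 0.148) or M33-MEIS1 replicate 2 (0.28, 0.0676). Derl3 was dim, at means of 18.1, 19.0 and 9.47 against 15.4 in control, and passed nowhere. The ligase HRD1 itself (Syvn1) differed by -0.06, -0.15 and -0.07 (adjusted p = 0.683, 0.256 and 0.663). Edem1, which feeds glycoproteins into degradation, differed by -0.13, -0.24 and -0.21, and its call with MEIS1-deltaHD (adjusted p = 0.0447) was lost when any of 5 of the 6 arrays compared was left out (adjusted p up to 0.172). With MEIS1-WT it did not pass (adjusted p = 0.0886), but it did after quantile normalization (-0.28, 0.0248) and with the mean of its kept probe sets (-0.28, 0.0106). Its second probe set gave -0.02, -0.13 and -0.35 and passed with MEIS1-WT alone (adjusted p = 0.0053).

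Among the sensors and their factors, Ern1 and Atf6 fell with every construct, Xbp1 and Wfs1 with MEIS1-deltaHD and MEIS1-WT, and Eif2ak3 with none. Thus 2, 4 and 4 of these 5 genes fell with M33-MEIS1, MEIS1-deltaHD and MEIS1-WT, beside 18.3%, 22.7% and 19.4% of all features. After scaling to equal medians 1, 1 and 3 of the 5 were lower and 1 was higher with each construct. Ern1, which codes for the Xbp1-splicing sensor IRE1alpha, gave 126, 180 and 153 with M33-MEIS1, 115, 107 and 131 with MEIS1-deltaHD and 118, 102 and 102 with MEIS1-WT, against 271, 293 and 252 in control. All construct arrays lay far below control. The differences were -0.78, -1.11 and -1.22 (SE 0.117, adjusted p = 1.28e-05, 5.45e-08 and 1.02e-08). Atf6, the sensor that is cut in the Golgi to a transcription factor, gave 140, 120 and 116 with M33-MEIS1, 103, 99.5 and 138 with MEIS1-deltaHD and 159, 126 and 163 with MEIS1-WT, against 209, 184 and 254 in control. No construct array reached the lowest control array, and Atf6 fell by 0.70, 0.84 and 0.48 (SE 0.131, adjusted p = 1.87e-04, 1.68e-05 and 0.00588). With MEIS1-WT it no longer passed without MEIS1-WT replicate 2 (-0.38, adjusted p = 0.0534).

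Xbp1, the bright transcript of the factor that IRE1alpha activates, showed a graded pattern. Its signals were 3135, 3046 and 3774 with M33-MEIS1, 2604, 2780 and 2759 with MEIS1-deltaHD and 2144, 2102 and 2179 with MEIS1-WT, against 3874, 3485 and 3961 in control. M33-MEIS1 arrays overlapped with control, MEIS1-deltaHD arrays lay below both, and MEIS1-WT arrays lowest. Xbp1 fell by 0.47 with MEIS1-deltaHD and by 0.81 with MEIS1-WT (SE 0.0790, adjusted p = 3.99e-05 and 1.4e-08), and the difference with M33-MEIS1 was -0.19 (adjusted p = 0.0739). These signals are of total Xbp1 RNA. Its splicing was not analysed here.

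Eif2ak3 (PERK) stood at 153, 162 and 160 with M33-MEIS1, 163, 136 and 134 with MEIS1-deltaHD and 177, 171 and 132 with MEIS1-WT, against 146, 145 and 138 in control. The M33-MEIS1 arrays lay just above control and the others overlapped with it, and the differences were 0.13, 0.01 and 0.14 (SE 0.111, adjusted p = 0.392, 0.958 and 0.365). Wfs1, wolframin of the ER membrane, was dim. It had signals of 15.3, 7.78 and 10.4 with M33-MEIS1, 7.34, 8.60 and 10.9 with MEIS1-deltaHD and 7.14, 4.95 and 7.36 with MEIS1-WT, against 21.8, 22.0 and 21.7 in control. All construct arrays were below control. Wfs1 fell with MEIS1-deltaHD (-0.60, SE 0.195, adjusted p = 0.0175) and MEIS1-WT (-0.75, adjusted p = 0.00399), with -0.49 for M33-MEIS1 (adjusted p = 0.0619). Without MEIS1-deltaHD replicate 1 the call with that construct was lost (-0.56, adjusted p = 0.0621).

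**Figure D3:**
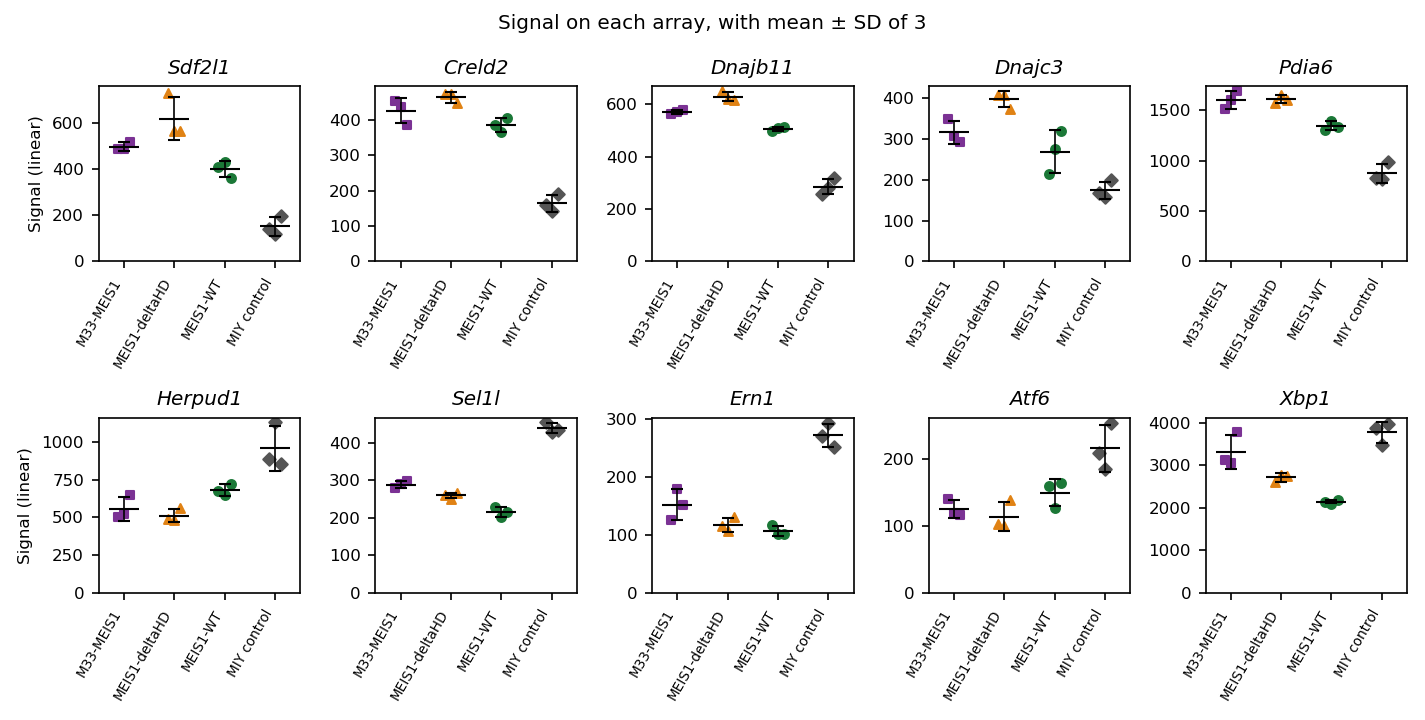
Signals on a linear axis from 0 are shown for 5 genes that rose (top) and 5 sensors or degradation factors (bottom), 1 symbol per array, with the mean and SD of 3 arrays, groups from left to right M33-MEIS1, MEIS1-deltaHD, MEIS1-WT and MIY control. In the top row every construct array lies above control, and in the bottom row every one lies below it except for Xbp1, where M33-MEIS1 overlaps with control and which lies above it on average with M33-MEIS1 and MEIS1-deltaHD once arrays are scaled to equal medians.

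The calls of several sensors and degradation factors, and the direction of a few, depended on how arrays were scaled. As deposited, all arrays have the same trimmed mean signal, and control arrays have higher medians. Scaling to equal medians shifted the median difference of all features by 0.22, 0.30 and 0.23 for M33-MEIS1, MEIS1-deltaHD and MEIS1-WT against control, and quantile normalization by 0.12, 0.16 and 0.13. With equal medians 23, 23 and 22 of the 34 genes were higher and 2, 2 and 4 lower. The median difference was then 0.73, 0.82 and 0.52 over these genes and 0.096, 0.13 and 0.10 over all features. Of the calls over all features, 80.7%, 82.2% and 77.4% were higher with equal medians, beside 40.3%, 37.8% and 40.7% as deposited. After quantile normalization these shares were 50.6%, 49.6% and 51%. The counts with equal medians are thus not particular to the 34 genes. With equal medians Derl1 and Atf6 passed with no construct, Sel1l (-0.23 and -0.24) passed only with MEIS1-WT, and Herpud1 lost its call with MEIS1-WT (-0.11). Dnajb9 (-0.05 and 0.07 with M33-MEIS1 and MEIS1-deltaHD) and Edem1 (0.25 with MEIS1-deltaHD) passed with none of those constructs, Syvn1 turned to 0.27, 0.32 and 0.27, and Wfs1 lost its call with MEIS1-deltaHD under both scalings (-0.36 with equal medians). Xbp1 stood at 0.17 and 0.03 with M33-MEIS1 and MEIS1-deltaHD, and Eif2ak3 passed as higher with all 3 (0.46, 0.46 and 0.47). Ern1 kept its calls, and no chaperone or folding enzyme that rose lost its call under either scaling.

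Other gene lists, 6 in number, place the group within its pathway. Over all features 12.4%, 13.8% and 13.3% were higher and 18.3%, 22.7% and 19.4% lower with M33-MEIS1, MEIS1-deltaHD and MEIS1-WT. Of 21 translocation and signal peptide genes, 10, 11 and 8 rose and 1, 2 and 2 fell with M33-MEIS1, MEIS1-deltaHD and MEIS1-WT. Spcs3, a signal peptidase subunit, had 1402 ± 94.7, 1325 ± 20.8 and 1166 ± 70.9 with the constructs, against 769 ± 48.7 in control (SD, n = 3 each), and rose by 0.85, 0.78 and 0.59. Srprb, the receptor subunit for the signal recognition particle, rose by 0.56, 0.69 and 0.40. Sil1, a BiP nucleotide exchange factor, fell with M33-MEIS1 (-0.62, adjusted p = 5.93e-04) and MEIS1-deltaHD (-0.33, adjusted p = 0.0478), with -0.33 for MEIS1-WT (adjusted p = 0.0503). Of 19 N-glycosylation genes, 11, 11 and 7 rose and 2, 1 and 3 fell. The glucosidase Mogs, which starts glycan trimming, rose by 0.70, 0.89 and 0.59, and the oligosaccharyltransferase subunit Ddost by 0.59, 0.73 and 0.50, while the cargo receptor subunit Mcfd2 fell by 0.64, 0.65 and 0.67. After quantile normalization the translocation list had 6 higher genes with each construct. With equal medians none of the 21 and, but for 1 N-glycosylation gene with MEIS1-WT, none of the 19 passed as lower. In that setting 80.7%, 82.2% and 77.4% of the calls over all features were higher.

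Other ER enzymes and further degradation genes were mixed. Of 14 oxidative folding and related genes, 7, 6 and 6 rose and 3, 3 and 4 fell. The prolyl isomerase Fkbp11 had 190 ± 30.7, 211 ± 7.95 and 144 ± 13.0 with the constructs, against 65.0 ± 5.38 in control, and rose by 1.34, 1.49 and 0.98 (adjusted p = 2.12e-09, 2.38e-10 and 2e-07). The sulfhydryl oxidase Qsox1 fell by 0.48, 0.58 and 0.76, though with equal medians no gene of this list passed as lower with M33-MEIS1 or MEIS1-deltaHD and 1 did with MEIS1-WT. In the further degradation list of 19 genes, 4, 5 and 4 rose and 5, 5 and 4 fell, with medians of 0.06, -0.02 and 0.01 beside -0.13, -0.17 and -0.12 over all features. The shares that fell lay near those of all features. The segregase Vcp, which pulls proteins out of the membrane, rose by 0.75, 0.68 and 0.67, and its cofactor Nploc4 by 0.52, 0.64 and 0.55. Herpud2 fell by 0.47, 0.61 and 0.46, and the lectin Os9 by 0.33, 0.50 and 0.57. With arrays scaled to equal medians 12, 13 and 10 genes of this list were higher and none lower, so that neither Herpud2 nor Os9 passed as lower. Most calls over all features were higher in that setting too.

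Genes listed for the PERK, eIF2alpha and ATF4 arm moved down. Of 11 tested, 9, 10 and 8 fell with M33-MEIS1, MEIS1-deltaHD and MEIS1-WT, and none rose in limma (none higher at an unadjusted p below 0.05 either). The median differences were -0.90, -0.96 and -0.64. The list also holds Eif2ak4, another eIF2alpha kinase, so it does not read PERK alone. Eif2ak3 (PERK) itself passed with no construct in the deposited scaling, and PERK activity was not tested. The ATF4-induced pseudokinase Trib3 had 79.5 ± 9.57, 61.0 ± 17.4 and 87.1 ± 10.2, against 834 ± 140 in control, and differed by -3.14, -3.48 and -3.03 on the log2 scale. The chromatin protein Nupr1 had 210 ± 2.10, 147 ± 36.2 and 363 ± 54.5, against 1492 ± 78.0 in control. The factors Atf3 and Ddit3 (CHOP) fell by 1.81, 1.79 and 1.59 and by 1.67, 1.73 and 1.18. Trib3 and Ddit3 were known to be low in these arrays when the list was drawn up, so its direction is not independent evidence. With equal medians 7, 6 and 5 of the 11 fell, and 1 was higher with MEIS1-deltaHD and with MEIS1-WT. Of 14 genes of ATF6 processing and related factors, 2, 3 and 3 rose and 2, 4 and 4 fell, shares near those of all features. The sterol sensor partner Scap rose by 0.43, 0.63 and 0.58, and the ATF6 relative Atf6b by 0.33 and 0.50 with M33-MEIS1 and MEIS1-deltaHD, beside 0.26 with MEIS1-WT (adjusted p = 0.0573). Tmbim6, a membrane protein that inhibits IRE1alpha, fell by 0.37, 0.48 and 0.51, but with equal medians none of these 14 passed as lower. Most calls over all features were then higher.

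**Figure D4:**
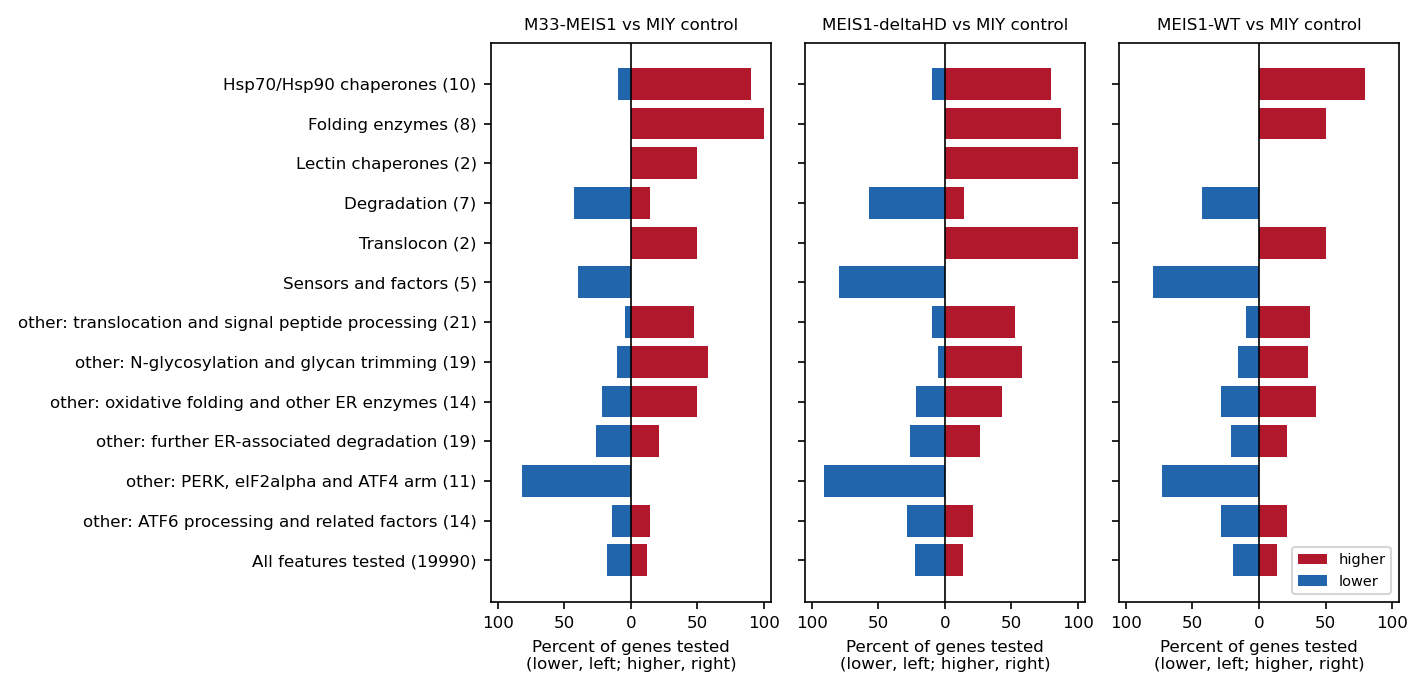
Bars give the percent of the tested genes of each list (number in brackets) that passed as higher (red, right) or lower (blue, left) against MIY control, 1 panel per construct, with all 19990 features in the bottom row. The Hsp70/Hsp90 chaperone and folding enzyme lists extend to the right and the PERK, eIF2alpha and ATF4 list to the left in all panels. The lectin chaperone list has no bar with MEIS1-WT.

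Constructs differed from each other in few of the 34 genes. MEIS1-deltaHD against MEIS1-WT had 4 higher and 1 lower (all features: 2.83% and 2.43%), with a median difference of 0.14 beside -0.03 over all features. All 3 MEIS1-deltaHD arrays lay above all 3 MEIS1-WT arrays for 18 genes and below for 1 (all features: 10.5% and 12.5%). The signals given above for Sdf2l1 did not overlap between these groups, and its difference was 0.60 (SE 0.125, adjusted p = 0.0032). Dnajc3 was higher by 0.55 (adjusted p = 0.0033), Xbp1 by 0.34 (adjusted p = 0.00867) and Dnajb11 by 0.31 (adjusted p = 0.0215), and Herpud1 was lower (-0.40, adjusted p = 0.018). Fkbp11 was also higher with MEIS1-deltaHD (0.51, adjusted p = 0.00583). Without an intensity trend in the variance none of these 5 genes of the group passed. Dnajb11 lost its call without any 1 of the MEIS1-WT arrays (adjusted p = 0.0882, 0.0667 and 0.0534) or without MEIS1-deltaHD replicate 1 (0.118) or 2 (0.0695). Herpud1 lost it without MEIS1-WT replicate 1 (0.0534) or 3 (0.0913) or MEIS1-deltaHD replicate 1 (0.102) or 2 (0.111), and Xbp1 without MEIS1-deltaHD replicate 2 (0.0581). Between these groups 7 of the 9 monocyte, 3 of the 7 mast cell and basophil and all 6 promyelocyte markers tested were also higher with MEIS1-deltaHD, and their part was not tested.

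M33-MEIS1 against MEIS1-WT had 5 higher and none lower in limma (2 lower at an unadjusted p below 0.05), beside 4.11% and 2.36% of all features. All 3 M33-MEIS1 arrays lay above all 3 MEIS1-WT arrays for 15 genes and below for none (all features: 11.2% and 10.4%). Xbp1 differed most, by 0.62 (SE 0.0790, adjusted p = 4.9e-06), with all 3 M33-MEIS1 arrays above all 3 MEIS1-WT arrays. Ern1 was higher by 0.44 (adjusted p = 0.02), Sel1l by 0.39 (adjusted p = 0.00271), Calr by 0.34 (adjusted p = 0.00302) and P4hb by 0.32 (adjusted p = 0.0126). Herpud1 did not pass (-0.29, adjusted p = 0.114), but its second probe set was lower (-0.54, adjusted p = 2.36e-04). It also passed as lower with the mean of its kept probe sets (-0.41, 0.00602) and without M33-MEIS1 replicate 3 (-0.40, 0.0247). The call of P4hb was lost without MEIS1-WT replicate 2 (0.28, adjusted p = 0.09) or M33-MEIS1 replicate 3 (0.27, 0.079). That of Ern1 was lost without MEIS1-WT replicate 2 (0.41, 0.0889) or 3 (0.41, 0.0787) or M33-MEIS1 replicate 2 (0.33, 0.147) or 3 (0.44, 0.062). With the mean of the kept probe sets neither Ern1 (0.29, adjusted p = 0.232) nor Sel1l (0.22, adjusted p = 0.187) passed. A further Sel1l probe set passed singly (0.45, adjusted p = 0.0297), while the others gave 0.18, 0.20 and -0.10 and did not. With equal medians Xbp1 alone passed. Between these groups 8 of the 9 monocyte, all 7 mast cell and basophil and all 6 promyelocyte markers tested were also higher with M33-MEIS1, and their part in the differences was not tested.

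M33-MEIS1 against MEIS1-deltaHD gave no call in limma among the 34 genes, where 0.67% of all features were called higher and 0.04% lower. At an unadjusted p below 0.05, 2 were higher and 2 lower. The arrays of M33-MEIS1 lay above those of MEIS1-deltaHD for 3 genes and below for 4 (all features: 9.65% and 6.31%). The differences ran from -0.32 (Dnajc3, SE 0.115, adjusted p = 0.283) to 0.33 (Ern1, SE 0.117, adjusted p = 0.272).

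Several genes are read by more than 1 probe set, and these did not always give the same size. With each of the 78 kept probe sets tested singly, 37, 37 and 24 were higher and 17, 18 and 20 lower with M33-MEIS1, MEIS1-deltaHD and MEIS1-WT against control. Over all 31726 kept probe sets 11.8%, 13.8% and 13.1% were higher and 17.1%, 20.8% and 17.8% lower. Between constructs, 11 were higher and 2 lower for MEIS1-deltaHD against MEIS1-WT (all kept probe sets: 2.42% and 2.11%), and 11 higher and 1 lower for M33-MEIS1 against MEIS1-WT (3.36% and 2.19%). For M33-MEIS1 against MEIS1-deltaHD 1 was higher, an Xbp1 probe set (0.34, adjusted p = 0.049), and none lower in limma (0.438% and 0.0536%). A second Hsp90b1 probe set had means of 1705, 1793 and 1458 with the constructs, against 765 in control, and gave differences of 1.14, 1.22 and 0.92, larger than those of the brighter probe set used above. The 2 further probe sets of Calr passed with MEIS1-WT (0.38 and 0.34, adjusted p = 4e-04 and 2.4e-04), where the one used did not. A second Hspa5 probe set gave 0.63, 0.67 and 0.57, and a dim one (159 with MEIS1-deltaHD, 241 in control) was lower with MEIS1-deltaHD (-0.56, adjusted p = 0.0011). Hspa5 was the 1 gene of 23 with several kept probe sets whose calls against control were opposed.

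All 4 Xbp1 probe sets were lower with MEIS1-deltaHD and with MEIS1-WT, at -0.45 to -0.64 and -0.42 to -1.03, and 1 of them passed with M33-MEIS1 as well (-0.30, adjusted p = 0.00445). Of 5 Ern1 probe sets, the 2 brightest in control fell with every construct, and the other 3, with control means of 38.7, 15.9 and 3.29, passed with none. With the mean of its kept probe sets Ern1 did not pass with M33-MEIS1 (-0.30, adjusted p = 0.0772). Of 5 Sel1l probe sets, all were lower with M33-MEIS1 and with MEIS1-WT and 2 with MEIS1-deltaHD, and 2 of 3 Atf6 probe sets were lower with each construct. Pdia3 and Pdia4 each have a second, dim probe set that passed with none, and with the mean of both Pdia3 gave 0.15 and 0.17 with M33-MEIS1 and MEIS1-WT (adjusted p = 0.252 and 0.192) and Pdia4 0.27 and 0.08 with M33-MEIS1 and MEIS1-deltaHD (adjusted p = 0.168 and 0.712). For Dnajc3 the probe set used was the only 1 of 5 that passed between MEIS1-deltaHD and MEIS1-WT, and the mean of its kept probe sets differed by 0.17 (adjusted p = 0.379).

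**Figure D5:**
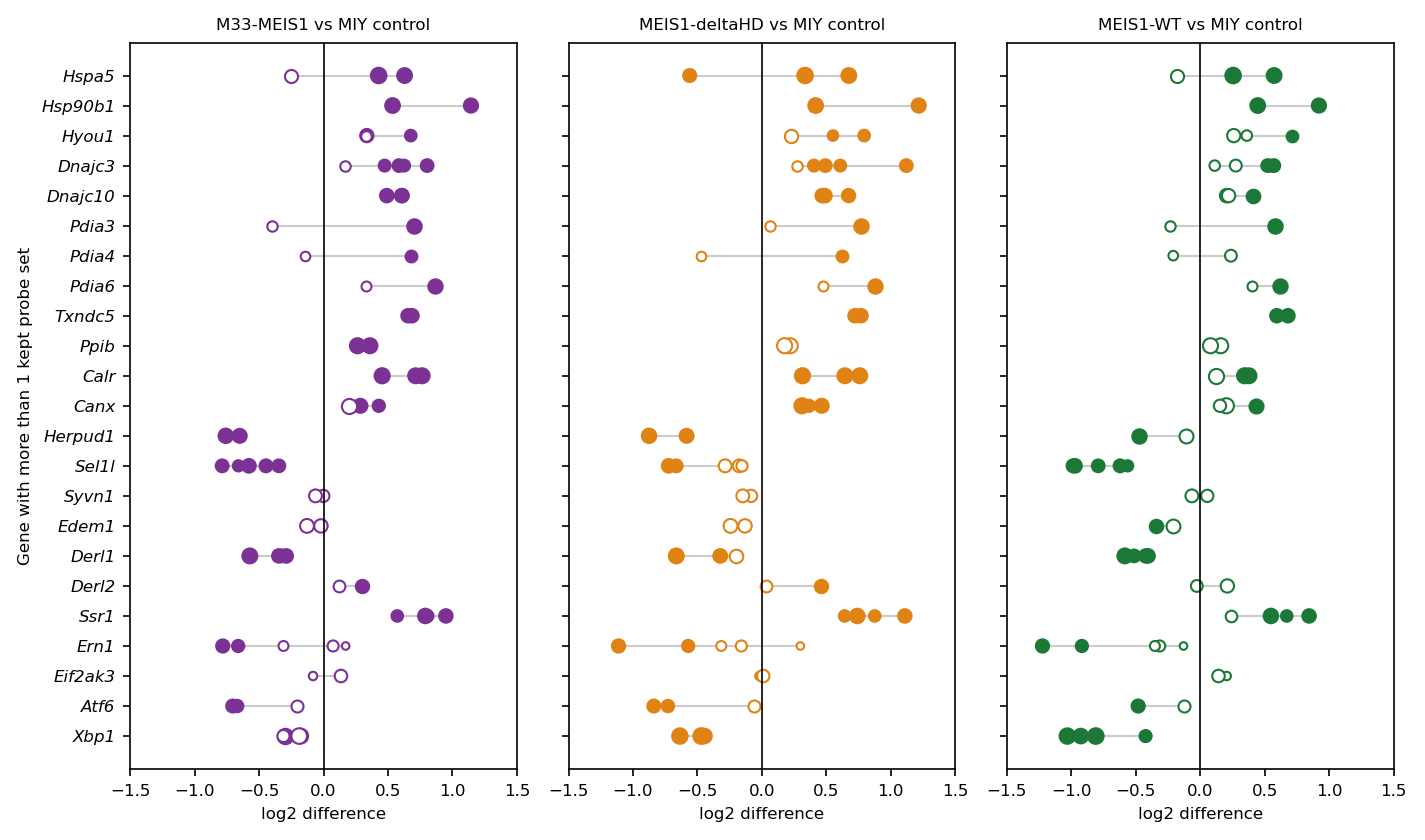
Each point is 1 kept probe set of a gene that has more than 1, placed by its log2 difference from MIY control, 1 panel per construct. Larger points are brighter probe sets, and filled ones passed at an adjusted p below 0.05 over all kept probe sets. Hsp90b1 and Calr show filled points of unequal size of effect, and Hspa5 has a point on each side of 0.

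Of the 9 genes that hold the ERSE, 6, 7 and 5 rose with M33-MEIS1, MEIS1-deltaHD and MEIS1-WT and none fell in limma (none at an unadjusted p below 0.05). The exceptions with every construct were Derl3 and Syvn1. Of the 20 genes with a window but no ERSE, 11, 11 and 7 rose and 4, 7 and 5 fell. Of 28 genes outside the group with the element, 6 were tested, and none rose while 1 fell in each comparison (Zfp57 with M33-MEIS1 and with MEIS1-deltaHD, Ero1b with MEIS1-WT). Over all 11301 tested genes with a window, 1784, 1989 and 1901 rose (15.8%, 17.6% and 16.8%), and more, 2184, 2690 and 2292, fell. Genes outside the group with the ERSE-II were not looked up. Of the 2 genes of the group that hold it, Dnajb11 rose with all constructs. Herpud1 fell with M33-MEIS1 and MEIS1-deltaHD, while its call as lower with MEIS1-WT was absent in its second probe set and with equal medians.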

How the data were processed

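RNA of 12 cultures in 4 groups of 3 was measured on Affymetrix mouse arrays. The deposited values are linear signal intensities per probe set, made by the authors with GCOS 1.2 per the submitters' processing notes. The values show each array scaled to a common trimmed mean. The number of arrays limits the precision.

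Here log2(signal + 16) was used. Probe sets above their array's 40th percentile on at least 3 arrays were kept (31726 of 45101), and a gene was read from its kept probe set of highest mean, which gave 19990 features. All groups shared 1 linear model with 8 residual degrees of freedom and an intensity trend in the variance (eBayes), fitted by limma, version 3.58.1, under R, version 4.3.3. P-values were adjusted by Benjamini-Hochberg over all features, with a threshold of 0.05. An exact permutation test of 3 against 3 arrays cannot go below p = 0.1 and was not used. The procedure was tested on simulated data. The arrays are called independent experiments by the series record. Where they share a cell line, p-values measure a spread that is partly technical.

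The members and lists were chosen with earlier results of these data known. Named are the 8 members of largest passing difference per comparison with control, up to 5 between constructs, Ern1, Eif2ak3, Atf6 and Xbp1, and up to 4 genes per further list. Other members are given by role. Numbers of replicates were checked for pairing: the deviations of same-numbered arrays correlated at -0.0385 to 0.0253, so they do not pair the arrays. Alternatives were the pseudocount, the filter, the scaling, the variance trend, the arrays fitted, the probe set rule, a replicate block and leaving out each array. Promoter windows came from RefSeq (GRCm38.p6).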

Additional observations from a re-analysis of the deposited data

How the results depend on the processing

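Against control, leaving out each array in turn gave 18 to 20 higher and 6 lower members with M33-MEIS1, 20 to 21 and 6 to 9 with MEIS1-deltaHD, and 12 to 15 and 6 to 7 with MEIS1-WT. Between constructs it gave 2 to 6 higher and 0 to 2 lower for MEIS1-deltaHD against MEIS1-WT, 3 to 8 and 0 to 1 for M33-MEIS1 against MEIS1-WT, and 0 for M33-MEIS1 against MEIS1-deltaHD. A fit with the replicate block gave the same counts of members as the fit without it (20 higher and 6 lower, 20 and 9, 13 and 7, 4 and 1, 5 and 0, 0 and 0) and changed none of them. Scaling to equal medians left 2 lower with M33-MEIS1, 2 with MEIS1-deltaHD and 4 with MEIS1-WT, raised the higher ones with MEIS1-WT to 22, and left 0 lower for MEIS1-deltaHD against MEIS1-WT and 1 higher for M33-MEIS1 against MEIS1-WT. Without the intensity trend there were 0 higher and 0 lower for MEIS1-deltaHD against MEIS1-WT and 2 higher for M33-MEIS1 against MEIS1-WT. Fitting only the compared arrays gave 8 higher in each of these comparisons. The mean of the kept probe sets gave 1 lower for M33-MEIS1 against MEIS1-WT. Quantile normalization, and likewise leaving out probe sets that may cross-hybridise, gave 1 higher for M33-MEIS1 against MEIS1-deltaHD. Among Ern1, Eif2ak3, Atf6, Xbp1 and the members of largest difference, directions turned for Xbp1 with equal medians (0.17 with M33-MEIS1 and 0.034 with MEIS1-deltaHD against control) and for the small values of Eif2ak3. Among the other members called, Dnajb9 and Edem1 turned with equal medians (0.067 and 0.25 with MEIS1-deltaHD). For MEIS1-deltaHD against control Eif2ak3 was -0.0048 with the mean of the kept probe sets, and leaving out each array gave -0.073 (without MEIS1-deltaHD replicate 1) to 0.056 (without MEIS1-deltaHD replicate 3), with -0.011 without control replicate 3. For M33-MEIS1 against MEIS1-WT leaving out each array gave -0.126 (without MEIS1-WT replicate 3) to 0.064 (without MEIS1-WT replicate 1), with 0.043 without MEIS1-WT replicate 2 and 0.016 without M33-MEIS1 replicate 1. For M33-MEIS1 against MEIS1-deltaHD Eif2ak3 was -0.0072 with equal medians. The cause of these changes was not tested. Dim probe sets (Derl3, Wfs1) limit what can be read from them.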
